A study of Mesocricetus auratus with 11 samples.

Results

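In Syrian hamster cells, 972 CpGs lay in CpG-dense sequence and were partly methylated in primary fetal cells. A CpG was called dense where 20 or more CpGs, itself included, were listed in any of the 11 libraries within 250 bp on each side. Partly methylated meant 20% to 80% methylated reads in the pooled reads of the primary replicates 1 and 2. Each CpG also had 10 or more reads in all 11 libraries. The 972 CpGs were 4.76% of the 20435 dense CpGs with that coverage. With CpGs of any density, 81297 had that coverage, and 2010882 CpGs were listed in at least 1 library. Of the 4764 dense CpGs that met the level and read limits in the primary replicates 1 and 2 alone, the 972 were 20.4%. Because primary replicates 1 and 2 chose the CpGs, their values below are a description, and primary replicates 3 and 4 stood for the primary cells in every comparison.

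Clusters of CpGs in mammalian genomes are mostly free of methylation, many of them at gene promoters, while scattered CpGs are mostly methylated. Dense CpGs that are neither are known from imprinted genes, where only 1 parental copy carries the mark, from the inactive X chromosome of females, from some repeated sequences, and from mixtures of cells that differ in methylation. In DNA from many cells these arrangements give the same partial level, so that fewer methylated cells, fewer methylated copies per cell and a mixture of copies of a sequence cannot be told apart from it. The scaffold positions were not linked to genes or sequence here.

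The assay was reduced representation bisulfite sequencing: a restriction digest enriches CpG-rich fragments, and bisulfite converts unmethylated cytosines so that they read as T. The primary cells (n = 4) came from individual female fetuses at gestation day 13.5, had no treatment, and had spent less than 3 days and 1 passage in culture. With head, viscera and limbs removed, they were a mixture of ectodermal and mesodermal cells at several stages of differentiation. MT2 is a female line that grew out of a morphologically transformed colony induced by benzo[a]pyrene (5 µg/mL) and that bypassed senescence. It was used at an estimated passage 28. MT2 wells received vehicle for 48 h (0.05% DMSO, n = 4) or 5 µM 5-aza-2′-deoxycytidine, 5aCdR, for 48 h (n = 3). 5aCdR is a cytidine analogue that enters replicating DNA and traps the DNA methyltransferases, so that methylation is lost as cells divide. The MT2 libraries were wells seeded from 1 stock of 1 line, so p-values that involve them measure the spread between wells, and MT2 against primary cells is also 1 line against individual fetuses.

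The libraries held 17834610 to 46148127 reads over CpGs. The median depth over the 972 CpGs ran from 29 reads in vehicle replicate 3 to 72 reads in 5aCdR replicate 1. A few of the CpGs were far deeper: 67 of them, 6.89%, belonged to the 0.1% of CpGs with the highest coverage in some library, against 0.744% of all dense CpGs.

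The 972 CpGs were spread over 204 scaffolds and sat at the sparser side of the dense class. Their median density was 26 CpGs per window, against 33 for the 19092 dense CpGs below 20% in the primary replicates 1 and 2, and 23 for the 371 dense CpGs above 80% there. Density reached 30 at 33.95% of the 972, at 61.1% of the dense CpGs below 20% and at 17.3% of those above 80%. The denser CpGs had lower levels in each group of libraries. The 642 CpGs of density 20 to 29 averaged 40.5% ± 0.146 (SD, n = 2) in primary replicates 3 and 4, and the 330 of density 30 or more averaged 32.2% ± 2.30 (SD, n = 2). In vehicle-treated MT2 cells the same sets averaged 43.6% ± 0.409 and 34.3% ± 0.427 (SD, n = 4).

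Partial methylation in the pooled reads covered several arrangements in the 2 fetuses that chose the CpGs. At 347 CpGs, both fetuses lay between 20% and 80%. At 120 CpGs, 1 fetus was below 20% and the other above 80%, with primary replicate 1 the high one at 65 and primary replicate 2 at 55. The other 505 combined 1 partial with 1 extreme level. The fetuses that took no part in the choice differed between these sets. Of the 347 CpGs partial in both fetuses, 271 (78.1%) were again at 20% to 80% in the pooled reads of primary replicates 3 and 4, and of the 120 that were opposite, 45 (37.5%) were.

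The values just inside and just outside the limits of the rule were as follows. Dense CpGs pooled at 20% to 22%, just inside, numbered 78 and averaged 14.3% in primary replicates 3 and 4, and the 73 at 18% to 20%, just outside, averaged 12.3%. The 20 CpGs at 78% to 80% averaged 66.7%, and the 20 at 80% to 82% averaged 78.2%. The 211 CpGs of density 20 or 21 averaged 45.9%, and 310 otherwise similar CpGs of density 18 or 19 averaged 48.8%.

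Over all 972 CpGs, the mean level was 37.0% and 38.3% in primary replicates 3 and 4, and 40.8%, 40.7%, 40.1% and 40.2% in the 4 vehicle-treated MT2 wells. It was 34.3%, 32.8% and 34.8% in the 3 wells with 5aCdR. All vehicle wells lay above both fetuses, and all 5aCdR wells lay below both fetuses and below all vehicle wells. The primary replicates 1 and 2, on which the CpGs were chosen, stood at 45.2% and 43.9%.

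The first comparison asked how the transformed line differed from the primary cells. Vehicle-treated MT2 cells averaged 40.4% ± 0.334 (SD, n = 4) and primary replicates 3 and 4 averaged 37.7% ± 0.876 (SD, n = 2), a difference of 2.78 percentage points or 7.37% of the primary level. By an exact two-sided permutation test p was 0.0667, and 4 libraries against 2 cannot give a smaller one, so this difference cannot pass a threshold of 0.05 by design. Weighting each CpG by its reads gave 1.61 points with an exact permutation p = 0.6, and weighting each 1 kb tile equally gave 4.89 points with p = 0.0667.

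The second comparison asked what 5aCdR did to the line. The mean level fell by 6.45 percentage points from vehicle to 5aCdR, to 33.99% ± 1.07 (SD, n = 3), which was a relative loss of 16.0%. By the same exact test p was 0.0286, the lowest possible with 3 wells against 4. Leaving out any 1 of the 7 wells left differences of -6.88 to -5.86 points, with exact permutation p-values of 0.0667 to 0.1, again the lowest possible with those numbers of wells. Against primary replicates 3 and 4, the 5aCdR wells were 3.68 points lower, with an exact permutation p = 0.1, the lowest possible with 3 against 2. With each 1 kb tile weighted equally this last difference was -1.44 points (exact permutation p = 0.2), and at the 66 CpGs with both strands listed in all libraries it was -6.49. The comparisons share the vehicle wells and the fetuses.

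**Figure D1:**
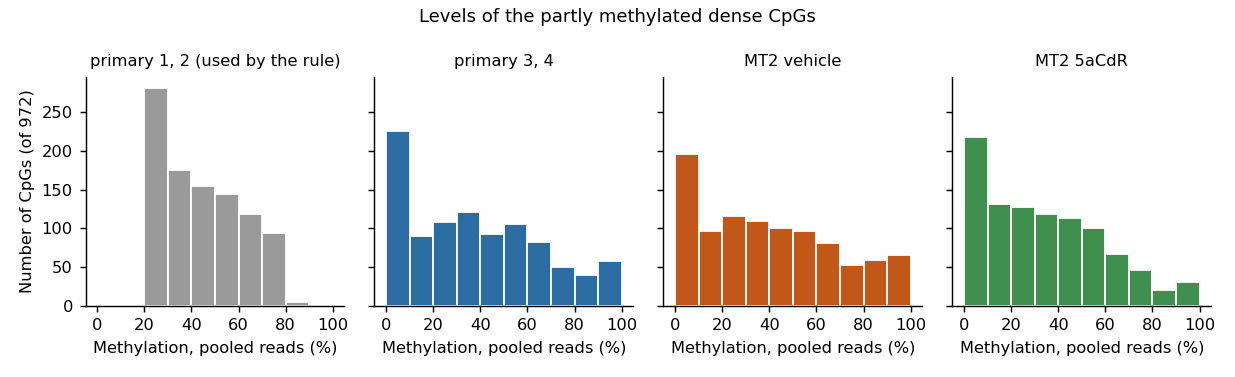
Number of the 972 CpGs (vertical axis) in each 10-point interval of methylation in the pooled reads of a group (horizontal axis, %), for primary replicates 1 and 2, which the rule used, primary replicates 3 and 4, vehicle-treated MT2 cells and MT2 cells with 5aCdR. Outside the fetuses used for the choice, the lowest interval was the fullest, with 226, 196 and 218 CpGs, and the highest held 58, 65 and 31.

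The mean hid a wide spread over single CpGs, as the histograms of pooled levels show. In the pooled reads of primary replicates 3 and 4, 316 of the 972 CpGs (32.5%) were below 20%, 558 (57.4%) were at 20% to 80% and 98 (10.1%) were above 80%. In vehicle-treated MT2 cells the 3 classes held 293, 555 and 124 CpGs. The class sizes were close, but many CpGs sat in another class: of the 558 CpGs partial in primary replicates 3 and 4, 394 (70.6%) were partial in MT2 cells, 87 were below 20% and 77 above 80%. Of the 98 above 80% in those fetuses, 46 (46.9%) were above 80% in MT2 cells and 5 were below 20%. Of the 316 below 20%, 201 (63.6%) were below 20% in MT2 cells and 1 was above 80%. The first class was set on the reads of primary replicates 3 and 4 themselves, so some change of class is built into this division.

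After 5aCdR the top class emptied most. The classes held 349 CpGs below 20%, 572 at 20% to 80% and 51 above 80%. Of the 124 CpGs above 80% with vehicle, 82 (66.1%) were at 20% to 80% with 5aCdR, 42 were still above 80% and 0 were below 20%. Of the 555 partial with vehicle, 455 (81.98%) were partial with 5aCdR, 91 were below 20% and 9 above 80%. These classes were set on the vehicle reads themselves, so part of the moves is built into the choice. The 136 CpGs above 80% in vehicle replicates 1 and 2 averaged 94.1% there, 80.8% in vehicle replicates 3 and 4, and 69.8% with 5aCdR. The relative difference of 5aCdR from vehicle replicates 3 and 4 was -13.6% at these CpGs. It was -12.2% for CpGs below 20% and -16.7% for CpGs at 20% to 80% in vehicle replicates 1 and 2. In all, 344 CpGs (35.4%) were at 20% to 80% in the pooled reads of all 3 groups, the fetuses that chose them left aside.

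Class shares of single libraries depend on depth, so each CpG was also thinned to 10 reads in expectation. The share above 80% was then 9.49% ± 0.771 (SD, n = 3) with 5aCdR and 19.5% ± 2.72 (SD, n = 4) with vehicle, without overlap. Its exact permutation p was 0.0286, and 0.0857 after adjustment over the 3 classes. The share at 20% to 80% was 53.4% ± 1.13 with 5aCdR and 43.7% ± 6.05 with vehicle, with an exact permutation p = 0.0857 and an adjusted p of 0.129. The share below 20% was 37.1% ± 1.38 against 36.8% ± 3.34, with an exact permutation p = 0.943. Without thinning, the shares above 80% were 9.36% and 19.7%. Between vehicle and primary replicates 3 and 4, none of the 3 thinned shares passed: 36.8% against 36.3% were below 20%, 43.7% against 49.0% at 20% to 80%, and 19.5% against 14.6% above 80%, with adjusted exact permutation p-values of 0.8, 0.4 and 0.4.

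Single CpGs varied strongly between libraries of 1 group. The mean absolute difference of a CpG between 2 vehicle wells was 21.6 percentage points (18.9 to 23.5 over the 6 pairs of wells), and between primary replicates 3 and 4 it was 20.9 points. Between a vehicle well and one of these fetuses it was 25.1 points (23.2 to 26.9 over 8 pairs), so the lowest value across the groups lay within the range found among vehicle wells. At the same CpGs, 5aCdR wells differed from each other by 17.2 points. These wells were deeper, with medians of 55 to 72 reads against 29 to 52 in the vehicle wells, and the part of depth was not tested. Among the sparse CpGs (1 to 4 CpGs in the window) that were also at 20% to 80% in primary replicates 1 and 2, the distance between a vehicle well and a fetus was 33.8 points. The 2 strands of a CpG also differed, and the part of counting error in this was not tested. At the 315 CpGs with both strands listed in primary replicates 3 and 4, the strands differed by a median of 18.9 points, and by over 50 points at 54 (17.1%). At the 98 CpGs with both strands listed in the vehicle wells, the median was 12.5 points, and 12 (12.2%) were over 50 points.

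**Figure D2:**
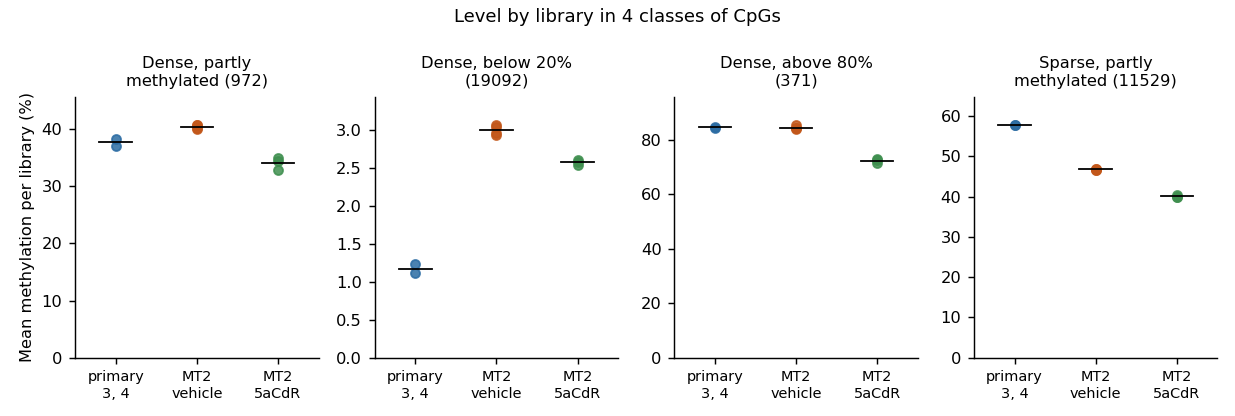
Mean methylation per library (vertical axis, %, from 0 with its own scale in each panel) in primary replicates 3 and 4, vehicle-treated MT2 cells and MT2 cells with 5aCdR for the 972 CpGs and the other 3 classes, all classed on primary replicates 1 and 2; points are libraries and bars group means. The 972 CpGs were at 37.7%, 40.4% and 33.99%, and the sparse ones at 57.8%, 46.8% and 40.2%.

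The difference between MT2 and primary cells had the opposite sign at sparse CpGs chosen by the same 20% to 80% window, which averaged 54.4% in primary replicates 1 and 2 where the 972 averaged 44.6%. The 11529 sparse CpGs at 20% to 80% averaged 57.8% ± 0.127 (SD, n = 2) in primary replicates 3 and 4 and 46.8% ± 0.143 (SD, n = 4) in vehicle-treated MT2 cells, a difference of -11.05 points where the dense ones differed by 2.78. The difference of these differences was 13.8 points, with an exact two-sided permutation p = 0.0667, the smallest possible. Dense CpGs below 20% averaged 1.17% in these fetuses and 3.01% with vehicle, and dense CpGs above 80% averaged 84.5% and 84.4%. Against these classes the 972 differed by 0.943 and 2.84 points, with the same smallest exact permutation p of 0.0667. The 0.943 points did not hold: with a minimum of 20 reads it was -0.0899, and with a window of 30% to 70% it was -0.0340.

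With 5aCdR, the relative loss was 16.0% of the vehicle level at the 972 CpGs, 14.2% at dense CpGs below 20%, 14.4% at dense CpGs above 80% and 14.1% at the sparse partial CpGs. In the log2 ratio to each other class, the 972 differed by -0.03 against each of the 3, with exact permutation p-values of 0.2, 0.429 and 0.257. In percentage points, the 972 lost 6.03 more than dense CpGs below 20% and 5.70 less than dense CpGs above 80%, each with an exact permutation p = 0.0286. Against the sparse partial CpGs the difference was 0.153 points, with an exact permutation p = 0.8286. At a minimum of 20 reads the last comparison was different: the dense partial CpGs differed from the sparse ones by -2.43 points and by -0.09 on the log2 scale, each with an exact permutation p = 0.0286. With a density of 30 or more, the 5.70 points against dense CpGs above 80% became 2.25, with an exact permutation p = 0.486.

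**Figure D3:**
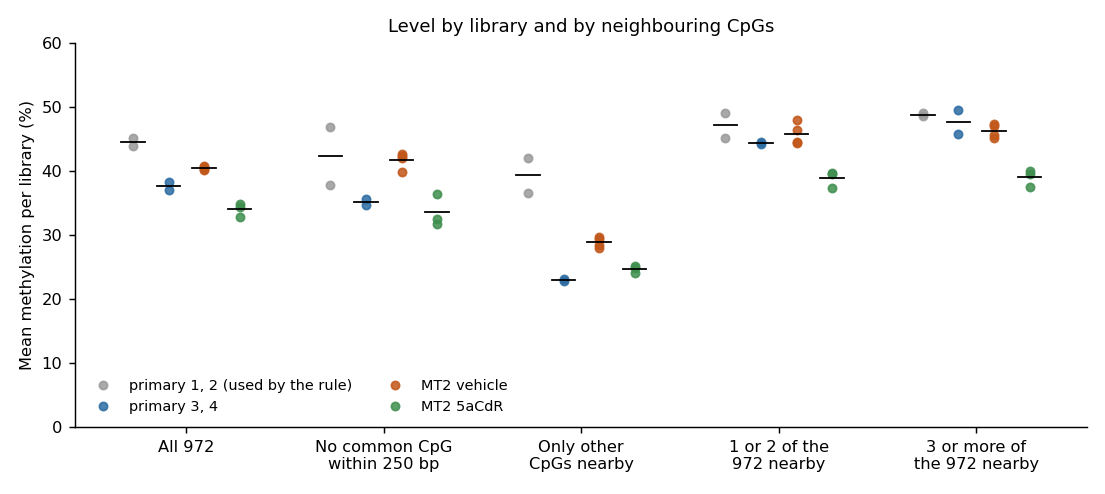
Mean methylation per library (vertical axis, %) of all 972 CpGs and of 4 sets by the covered CpGs within 250 bp (horizontal axis); points are libraries, coloured by group, and bars are group means. The CpGs with only other CpGs nearby averaged 23.0% in primary replicates 3 and 4, and those with 3 or more of the 972 nearby averaged 47.7%.

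Levels outside the 2 fetuses that chose the CpGs differed between sets drawn by neighbouring CpGs. The 972 were divided by the other CpGs within 250 bp that had 10 or more reads in all libraries, a division made with results in view and given without a test. There were 162 CpGs with no such CpG nearby, 276 whose covered neighbours held none of the 972, called lone here, 268 with 1 or 2 of the 972 nearby, and 266 with 3 or more. The last set was the deepest, at a median of 71 reads, and the lone CpGs had 40. Because the sets count neighbours among the 972, they rest on the values of primary replicates 1 and 2, which the rule used. In those 2 fetuses the sets already differed. Of the lone CpGs, 17.8% were at 20% to 80% in both and 20.3% were opposite. With 3 or more of the 972 nearby these shares were 60.2% and 3.01%. The part of the choice in the differences below was not tested.

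The lone CpGs were the least methylated in the fetuses outside the choice. They averaged 22.8% and 23.2% in primary replicates 3 and 4, and 60.9% of them were below 20% there in the pooled reads, while 31.9% were at 20% to 80%. Their covered neighbours, by definition none of them among the 972, averaged 22.8% in the same fetuses. CpGs with 3 or more of the 972 nearby averaged 45.8% and 49.6%, and 218 of the 266 (81.95%) were at 20% to 80%. Their neighbours, which by definition include 3 or more of the 972, averaged 45.3%. The CpGs with 1 or 2 of the 972 nearby were between, with 61.6% at 20% to 80%, as were those with no covered CpG nearby, with 53.7%.

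The same division separated the MT2 values. Lone CpGs ranged from 28.0% to 29.6% in the 4 vehicle wells, above both fetuses, with a mean difference of 5.84 points. CpGs with no covered neighbour were also higher in all vehicle wells, by 6.61 points on average. CpGs with 3 or more of the 972 nearby ranged from 45.1% to 47.3% in the vehicle wells, overlapping the fetuses, with a mean difference of -1.40 points. CpGs with 1 or 2 of the 972 nearby ranged from 44.3% to 48.0% in the vehicle wells and were at 44.5% and 44.2% in the fetuses, also overlapping, with a mean difference of 1.45 points. With 5aCdR, every well lay below every vehicle well in all 4 sets: the relative differences were -19.6% with no covered neighbour, -14.4% for lone CpGs, -15.2% with 1 or 2 and -15.7% with 3 or more of the 972 nearby.

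Few single CpGs passed the test of MT2 vehicle against primary replicates 3 and 4. A quasi-binomial logistic model was fitted to methylated and unmethylated reads at all 147189 CpGs covered in those 6 libraries, with Benjamini-Hochberg adjustment over the whole table, and 2.51% had an adjusted p below 0.05. Of the 972 CpGs, 15 (1.54%) did, 6 of them lower in MT2 and 9 higher. The share was below that of the whole table and above the 0.206% of all 20435 dense CpGs, of whose 42 calls the 15 were a part. Of those dense CpGs, 19092 were below 20% in primary replicates 1 and 2 and had little room to fall. The part of level in these shares was not tested. At an unadjusted p below 0.05 there were 152 of the 972 (15.6%), against 16.5% of the table. The count of 15 fell when any 1 vehicle well was left out. Without vehicle replicate 1, 2, 3 or 4 there were 0, 1, 1 and 0. Without the CpGs of highest coverage there were 6 of 905. Counts over the whole table under these settings are not given here, so whether such losses were particular to the 972 was not tested.

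The largest falls were complete. CpGs at KB708206.1 positions 10341836 and 10341858 had 0% methylated reads in all 4 vehicle wells and 100% in primary replicates 3 and 4. The median depths over all 11 libraries were 22 and 32 reads. Primary replicates 3 and 4 had 20 and 14 reads at the first position, and 17 and 19 at the second. The vehicle wells had 17 to 22 and 16 to 32 reads. CpGs this close in the same libraries are not separate observations. The primary replicates 1 and 2 had 44.8% and 50.0% at the first position and 39.5% and 50.0% at the second. With 5aCdR the first read 46.9%, 20.5% and 2.5%, and the second 0%, 0% and 1.9%. The 4 fetuses thus showed partial levels in 2 and full methylation in 2 at these positions. At KB708316.1 position 2654782, with a median of 1884 reads, the fall was smaller, to 28.996% ± 2.57 (SD, n = 4) from 63.1% ± 3.02 (SD, n = 2). At this position 5aCdR wells were at 27.1%, 23.7% and 23.3%.

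The largest rise of a called CpG was at KB708203.1 position 6330038, where the 4 vehicle wells read 100% and primary replicates 3 and 4 read 0% and 32.2%. The fetuses used for the choice were at 100% and 15.6% there, so that fetuses covered the whole range. At KB708147.1 position 2383971, vehicle wells ranged from 47.8% to 72.5% and primary replicates 3 and 4 were at 0%, on 31 and 119 reads. At KB708144.1 position 21950814, all vehicle wells were at 100% and the fetuses at 57.1% and 61.4%, and 5aCdR wells stayed at 97.2% to 98.4%. These CpGs were chosen for mention after their values were seen.

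For 5aCdR against vehicle, 0.0847% of 155920 CpGs passed and 1 of the 972 did (0.103%). That CpG was also the 1 call among all dense CpGs, 0.00489% of them. At KB708177.1 position 2952333, methylation fell from 64.9% ± 2.22 (SD, n = 4) to 50.0% ± 1.94 (SD, n = 3), a quasi-binomial adjusted p of 0.0416, on a median of 1633 reads. The call was lost without any 1 of the 7 wells except vehicle replicate 2. At an unadjusted p below 0.05 there were 114 CpGs (11.7%), against 8.77% of the table, and 105 of them were lower with 5aCdR. CpGs near 0% had little room to fall, and the part of level in these shares was not tested. limma on logit levels called 0 of the 972.

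**Figure D4:**
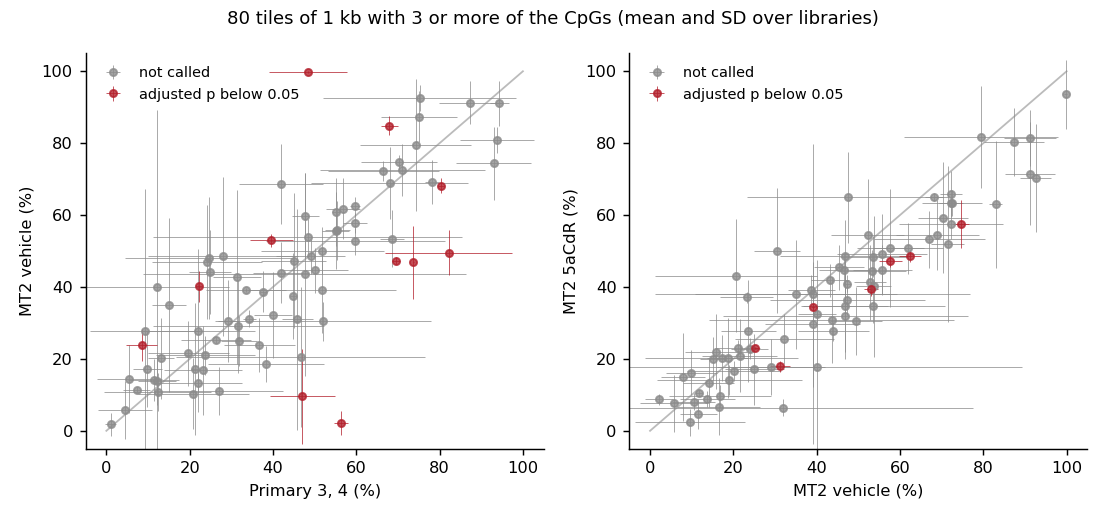
Methylation of the 80 tiles of 1 kb that held 3 or more of the 972 CpGs, as means over libraries with SD bars (%), in vehicle-treated MT2 cells against primary replicates 3 and 4 (left) and in 5aCdR against vehicle (right); the grey line marks equality and red marks an adjusted p below 0.05. The 11 called tiles on the left lay on both sides of the line, and the 7 on the right lay below it.

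Reads summed over 1 kb tiles gave more precision. The 972 CpGs fell into 594 tiles, 437 of which held 1 and 80 of which held 3 or more. These 80 tiles contained 381 of the CpGs (39.2%) and lay on 57 scaffolds. The scaffolds with the most such tiles were KB708147.1, KB708344.1 and KB708309.1, with 4 each. On KB708147.1 the partly methylated CpGs were 36 of 971 dense ones (3.71%), on KB708344.1 they were 28 of 140 (20.0%), and on KB708309.1 15 of 30 (50.0%).

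MT2 vehicle differed from primary replicates 3 and 4 in 11 of the 80 tiles (13.75%), 6 lower and 5 higher, against 11.7% of the 17412 tiles tested. In 19 of the 80 tiles the libraries of the groups did not overlap, against 27.4% of all tiles. Both shares were near or below those of the whole table. The count of 11 fell to 4 without primary replicate 3 and to 4 without primary replicate 4, and limma on logit levels called 2.

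Of the called tiles, 4 were lower by 25 points or more in MT2. At KB708206.1:10341001-10342000, the mean over its 4 CpGs was 13.6%, 0%, 0% and 1.25% in the vehicle wells and 74.1% and 75% in primary replicates 3 and 4. Over all 6 covered CpGs of the tile, MT2 was 54.2 points lower, at a quasi-binomial adjusted p of 0.0041. Primary replicates 1 and 2, on which the CpGs were chosen, stood at 26.7% and 37.1% over the 4 CpGs. This tile held the CpGs with the complete switch. Without primary replicate 3 or 4 the adjusted p became 0.0714 and 0.0750.

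The other 3 falls had weaker support. At KB708271.1:2968001-2969000, the 3 CpGs averaged 32.8%, 0%, 10.5% and 0% in the vehicle wells and 53.8% and 42.2% in primary replicates 3 and 4. The tile was 37.5 points lower with an adjusted p of 0.0428. Primary replicates 1 and 2, which chose the CpGs, were at 11.9% and 96.5%, so fetuses alone covered most of the range and replicate 1 lay within the vehicle range. The tile KB708338.1:947001-948000 was 32.7 points lower with an adjusted p of 0.0329, and KB708147.1:5551001-5552000 was 26.8 points lower with an adjusted p of 0.0401. In primary replicates 1 and 2 the CpGs averaged 60.5% and 76.3% in KB708338.1, and 36.1% and 76.5% in KB708147.1. The 36.1% lay within the vehicle range there, 30.3% to 51.7%. These 3 calls were lost with limma, with adjusted p-values of 0.232, 0.153 and 0.217. They were also lost without either fetus and without several of the wells: replicates 2, 3 and 4 for the first, 1, 3 and 4 for the second, and 2 and 4 for the third, with adjusted p-values from 0.0508 to 0.354 in all.

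The single rise of 25 points or more was at KB708144.1:21950001-21951000. Its 3 CpGs averaged 100%, 100%, 98.6% and 100% in the vehicle wells and 63.6% and 41.3% in primary replicates 3 and 4. The tile was 51.3 points higher in MT2, with an adjusted p of 0.00257, and it stayed called when any 1 library was left out. With 5aCdR its CpGs read 99.1%, 78.2% and 99.4%, and the tile differed from vehicle by -6.24 points with an adjusted p of 0.454. This was the most fully methylated of the named tiles in MT2 cells, and the fetuses held it at a partial level.

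5aCdR against vehicle gave 7 called tiles of the 80 (8.75%), all lower, against 0.799% of the 18639 tiles tested. At an unadjusted p below 0.05 there were 23 (28.75%), 21 of them lower, against 12.3% of all tiles. In 16 of the 80 the wells of the 2 groups did not overlap, against 8.81% of all tiles, and in 14 of these every 5aCdR well was below every vehicle well, against 7.62%. The called tiles were deep, with a median of 6249 reads per tile and library against 408 over the 80, and the part of depth in the count was not tested. Without the CpGs of highest coverage 2 were called, limma called 0, and without vehicle replicate 1 or 4 there were 4 and 3. None of the 7 reached a difference of 25 points.

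Depth also went with how far wells and fetuses disagreed. In the 8 tiles with a median of 300 or more reads per CpG, the median SD over vehicle wells was 3.25 points and primary replicates 3 and 4 differed by a median of 3.04 points. In the other 72 tiles these values were 12.4 and 13.2 points. Of the 7 calls with 5aCdR, 5 were in the 8 deep tiles. Scaffold KB708128.1 held 31 of the CpGs in the adjoining tiles 57001-58000 and 58001-59000, with medians of 2432 and 4260.5 reads per CpG. Whether positions this deep, on this scaffold and in the deep tiles of KB708967.1 and KB708316.1, collect reads from several copies of a sequence was not tested, and a partial level there can be a mean over such copies. In the adjoining tiles of KB708128.1, 5aCdR minus vehicle was -2.19 and -4.62 points, with quasi-binomial adjusted p-values of 0.0364 and 0.00319. The first of these calls was lost without any 1 well except vehicle replicate 3, with adjusted p-values of 0.0511 to 0.128.

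**Figure D5:**
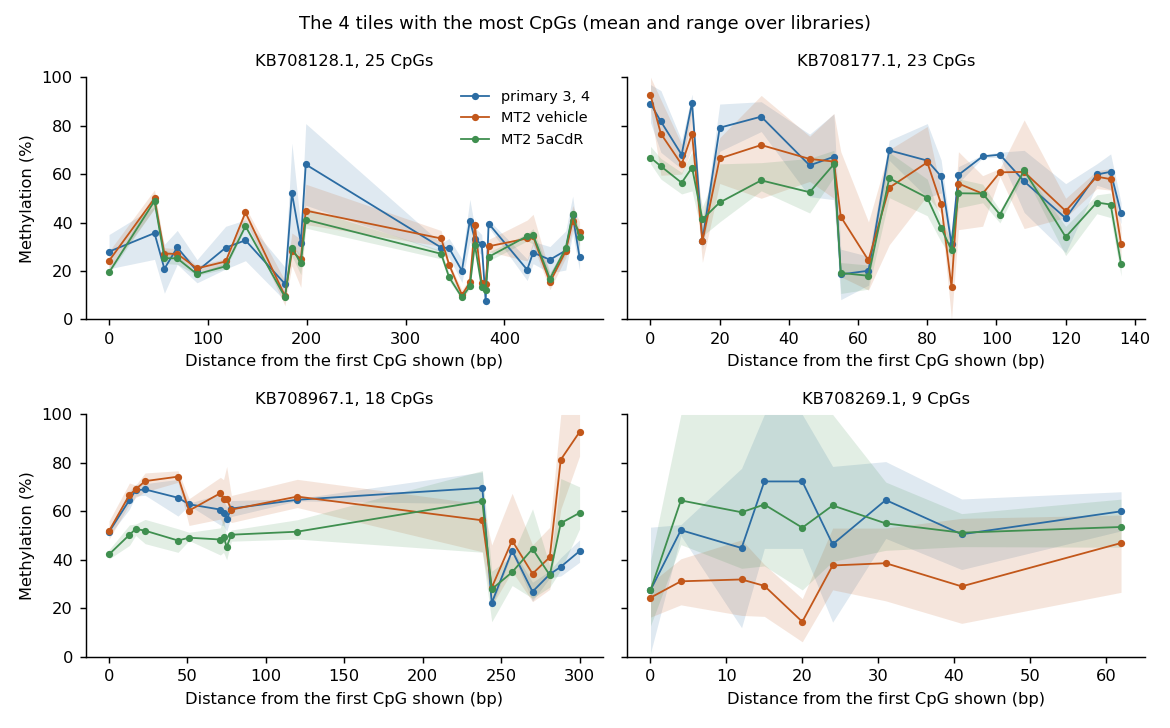
Methylation (vertical axis, %) of the CpGs in the 4 tiles with the most of the 972 CpGs (the last tied with another tile of 9), against the distance from the first CpG (horizontal axis, bp); lines join group means and bands span the lowest to highest library. In the KB708177.1 panel the vehicle means ran from 13.4% to 92.5%, and vehicle lay lowest at all 9 CpGs in the KB708269.1 panel.

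Some tiles were partly methylated in every library outside the choice. In 4 tiles, the mean over the partly methylated CpGs was 35% to 65% in each of the 9 libraries that the rule did not use. The largest was KB708177.1:6518001-6519000, with 23 CpGs over 136 bp, a median of 99 reads, and levels of 62.2% and 57.5% in primary replicates 3 and 4 and of 56.8%, 52.4%, 57.2% and 56.5% in the vehicle wells. It fell with 5aCdR, to 45.0%, 48.1% and 48.5%, and the tile's difference was 10.6 points with an adjusted p of 0.0131. Single CpGs of the tile were not at 1 level: their means in vehicle ran from 13.4% to 92.5%, as the profiles along the tiles show. The call was lost without 5aCdR replicate 1 and without vehicle replicate 1 or 4, with adjusted p-values of 0.0513, 0.0698 and 0.0689.

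The second of these tiles was on the same scaffold, at KB708177.1:2952001-2953000, with 8 CpGs and a median of 654.5 reads. Its CpGs averaged 37.5% and 47.2% in primary replicates 3 and 4, then 58.8%, 58.7%, 63.3% and 58.1% with vehicle, and 43.4%, 46.0% and 40.2% with 5aCdR. Over the whole tile, MT2 vehicle was 13.4 points above the fetuses with an adjusted p of 0.00527, and 5aCdR lowered it by 13.6 points with an adjusted p of 0.00103. This tile thus moved up in the line and back to the range of the fetuses with 5aCdR. Without primary replicate 3 the first of these gave an adjusted p of 0.0559, and limma called neither.

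The other 2, KB708147.1:5207001-5208000 and KB708365.1:1296001-1297000, held 3 CpGs each. The first ran from 40.7% to 57.6% with vehicle, from 39.6% to 60.6% with 5aCdR and was at 49.9% and 52.5% in the fetuses. The second ran from 47.7% to 64.0% with vehicle and from 36.3% to 51.1% with 5aCdR, and was at 47.0% and 50.9% in the fetuses. Neither tile was called in either comparison. In primary replicate 1, which the rule used, the second stood at 15.4%.

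Another of the tiles with many CpGs, KB708967.1:7001-8000, held 18 CpGs over 300 bp with a median of 526.5 reads. Its CpGs averaged 53.2% and 53.8% in primary replicates 3 and 4, 65.4%, 57.9%, 59.7% and 62.0% with vehicle, and 48.6%, 50.0% and 44.7% with 5aCdR. The fall with 5aCdR was 13.9 points over the tile, with an adjusted p of 0.000815. These 18 CpGs were nearly all of the 19 dense CpGs on that scaffold. Without the CpGs of highest coverage the tile's difference was -7.01 points with an adjusted p of 0.586, so the call rested on its deepest CpGs.

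The tile KB708269.1:1033001-1034000 went the other way. Its 9 CpGs, within 62 bp, averaged 73.1% and 36.1% in primary replicates 3 and 4, 30.8%, 40.3%, 29.5% and 25.4% with vehicle, and 79.6%, 39.0% and 44.7% with 5aCdR. All 9 CpGs had a lower mean with vehicle than in these fetuses and a lower mean with vehicle than with 5aCdR. CpGs this close in the same libraries are not separate observations, and the highest fetus and the highest 5aCdR well weighed most in these means. The fetuses and the 5aCdR wells spread widely, and the tile passed neither test, with adjusted p-values of 0.143 and 0.227 in the quasi-binomial model.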

How the data were processed

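The data are reduced representation bisulfite libraries of 4 primary, 4 MT2 vehicle and 3 MT2 5aCdR samples. Per the file headers, each deposited file lists positions with read counts (coverage) and the percent of C and of T calls on each strand. Bismark 0.22.1, methylKit 1.10.0 in R 3.6.1, Bowtie2, Trim Galore 0.5.0 and bcl2fastq 2.20.0.42 are named in the submitters' processing notes. The genome build, strand filters and removal of PCR copies are not given in the sources used here. Values below 10 reads per strand are not listed in the deposited files, so a CpG's level can rest on 1 strand, and copied reads would make counting errors too small. Positions are 1-based on the deposited scaffolds.

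Methylated and unmethylated read counts were rebuilt from coverage and percent, and both strands were summed per CpG. A library's level is the mean percent over CpGs, each weighted equally. Levels were compared by exact two-sided permutation tests: p is the share of splits whose absolute difference of means is at least as large as that seen. CpGs with 10 or more reads in each library, and 1 kb tiles with 3 or more such CpGs, were tested by a quasi-binomial logistic model with an F test, the dispersion moderated with limma 3.58.1 (R 4.3.3) and kept at 1 or more, with Benjamini-Hochberg adjustment over the whole table. The scripts (Python 3.11.15, numpy 2.4.6, scipy 1.17.1) were tested on simulated data. Called means an adjusted p below 0.05.

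Tiles were named by a rule: called, at least 25 points apart and without overlap, up to 5 each way in each comparison; up to 5 tiles at 35% to 65% in the 9 libraries not used by the choice; and the 3 scaffolds with the most tiles. The tiles with the most CpGs and the single CpGs are outside it and were chosen after their values were seen. The CpGs, tests and lists were chosen with earlier results of these data known. Same-numbered replicates are separate wells or fetuses, and their deviations from group means did not correlate (r from -0.042 to 0.02 over the 972 CpGs), so they were not treated as pairs. Alternatives were other read, density and level limits, swapped fetuses, other tests and tile sizes, and each replicate left out. Sequences and genes at the positions were not analysed here.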

Additional observations from a re-analysis of the deposited data

Results flagged for a closer look

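Among 23 sets of 4 vehicle wells examined, 4 had a well far from the other 3. Chance gives about 1 in 20 for values without bounds, but percentages are bounded and these sets share the same 4 wells. At KB708144.1:21950001-21951000, vehicle replicate 3 was at 98.6% and the other wells at 100%, the highest level possible, so that any lower well stands apart there by construction. At KB708177.1:2952001-2953000, vehicle replicate 3 was the highest, at 63.3%, with the others at 58.1% to 58.8%. At KB708177.1:6518001-6519000, vehicle replicate 2 was the lowest, at 52.4%, with the others at 56.5% to 57.2%. At KB708206.1:10341001-10342000, vehicle replicate 1 was at 13.6% and the others at 0% to 1.25%, at or near the lowest level possible, so that a higher well stands apart easily there too. These are means over the partly methylated CpGs of each tile.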

How the results depend on the processing

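Of the results in levels, the fall with 5aCdR kept its sign under all alternatives run. The difference between vehicle and primary replicates 3 and 4 turned to -1.40 points for CpGs with 3 or more of the 972 nearby, a set added after seeing the data. Without 1 library at a time it ran from 2.16 to 3.39, the fall with 5aCdR from -6.88 to -5.86, and 5aCdR minus primary from -4.30 to -3.06. Taking replicate numbers as a block, 5aCdR minus primary was -2.20 points from 1 shared number, and the block left 0 called CpGs for vehicle against primary and 0 for 5aCdR, with 5 and 3 called tiles.

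The change with 5aCdR in the thinned share below 20% was -0.112 points without the CpGs of highest coverage, and -0.827 to 1.22 without 1 library. For vehicle against primary that share moved by -0.987 to 1.95. Against other classes, vehicle minus primary relative to dense CpGs below 20% was -0.0899 at 20 reads and -0.0340 at 30% to 70%. For 5aCdR minus vehicle, the value relative to dense CpGs above 80% was 2.25 points at density 30, and relative to sparse CpGs it was -2.43 points and -0.0934 on the log2 scale at 20 reads and -0.124 points at 30% to 70%. Without 1 library, these ran from -6.46 to -5.45 points against dense CpGs below 20%, from 4.85 to 6.38 points and -0.0537 to 0.000206 on the log2 scale against those above 80%, and from -0.390 to 0.685 points against sparse CpGs.

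Called CpGs for vehicle against primary were 6 of 330 at density 30 and 6 of 905 without the highest coverage. They were 578 of 972 without overdispersion and 0 to 22 of 972 without 1 library. Called tiles were 3 of 22 with 5 or more of the CpGs per tile and 3 of 22 at density 30. They were 3 of 43 at 30% to 70%, 51 of 80 without overdispersion and 2 of 80 with limma. At 20 reads 5 were called, and without 1 library 4 to 10 of 80. Shares over all CpGs and tiles under these settings are not given here. For 5aCdR, called CpGs were 3 at 20 reads, 0 without the highest coverage, 559 without overdispersion, 0 with limma and 0 to 1 without 1 library. Called tiles were 4 at density 30, 63 without overdispersion, 0 with limma, 2 without the highest coverage and 3 to 6 without 1 library. Among tiles not called for vehicle against primary, leaving out 1 library reversed KB708365.1:1296001-1297000 (0.150, 1.32 and 5.32 points, range from -6.37), KB708177.1:6518001-6519000 (from -4.11 to 0.00892), KB708147.1:5207001-5208000 (from -11.2 to 5.67) and KB708128.1:57001-58000 (from -7.16 to 4.85). The causes were not tested, apart from fewer CpGs or samples where a limit removed them. At a median of 29 reads in the shallowest well, single CpGs carry wide counting error.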
